A study of Rattus norvegicus with 12 samples.

Results

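The members of the Egr and Nr4a families of immediate-early factors, with Myc, Klf4 and Klf6, were followed in dispersed cells of the rat cervix. The 10 members were Egr1, Egr2, Egr3, Egr4, Nr4a1, Nr4a2, Nr4a3, Myc, Klf4 and Klf6, and they were found by their gene names in the array files, where 14 of 30367 probes carried them (10 of 26612 gene names). The data are 1-colour Agilent arrays of 12 Sprague Dawley rats, with 1 rat to an array and 3 rats in each of 4 groups. The groups were whole cervix of NP rats, which were nonpregnant and in proestrus, whole cervix of D21 rats at day 21 postbreeding, the day before birth, and cervix depleted of macrophages (Mφs) from other NP and other D21 rats. All cervices were perfused with saline, minced and dispersed with collagenase. The depleted suspensions went on to incubation with the ED1 antibody and magnetic beads, steps the whole suspensions did not pass, so that loss of Mφs and the added handling cannot be told apart in any depleted against whole comparison.

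Immediate-early genes are transcribed within minutes of a stimulus, without new protein being made first, because the factors that bind their promoters are already present. The Egr proteins are zinc-finger factors that bind GC-rich DNA, and the Nr4a proteins are orphan nuclear receptors that act without a known hormone. The Nr4a proteins bind DNA alone or, for some of them, with a retinoid X receptor. Myc works with its partner Max on genes of growth and ribosome making, and Klf4 and Klf6 are zinc-finger factors of the Krüppel-like family, known in epithelium and in the response to injury. Serum response factor, which binds the CArG box, and CREB, which binds TGACG and its palindrome TGACGTCA, are the best known activators of these genes.

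RefSeq promoter windows of 300 bases, from 250 bases before the start site to 50 after it in the GRCr8 build, were at hand for 7 members (Egr1, Egr2, Egr4, Nr4a1, Nr4a2, Klf4 and Klf6). Windows are shown for 4 members called higher after depletion (Egr1, Egr4, Nr4a1 and Klf6) and for Egr2, whose window is arranged like that of Egr1. They lie at chr18:26736828-26737127 on the plus strand (Egr1), chr20:21054392-21054691 on the minus strand (Egr2), chr4:119607768-119608067 on the minus strand (Egr4), chr7:134259888-134260187 on the plus strand (Nr4a1) and chr17:69458429-69458728 on the minus strand (Klf6). Capitals mark each CArG box and each TGACG, on either strand, so that a TGACG of the other strand reads CGTCA.
Egr1: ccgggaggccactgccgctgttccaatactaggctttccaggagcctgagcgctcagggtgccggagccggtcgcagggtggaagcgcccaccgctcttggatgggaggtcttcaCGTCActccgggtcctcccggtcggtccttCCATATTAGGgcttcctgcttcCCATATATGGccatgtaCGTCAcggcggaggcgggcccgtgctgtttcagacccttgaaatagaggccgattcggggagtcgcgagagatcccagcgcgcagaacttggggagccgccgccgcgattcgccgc
Egr2: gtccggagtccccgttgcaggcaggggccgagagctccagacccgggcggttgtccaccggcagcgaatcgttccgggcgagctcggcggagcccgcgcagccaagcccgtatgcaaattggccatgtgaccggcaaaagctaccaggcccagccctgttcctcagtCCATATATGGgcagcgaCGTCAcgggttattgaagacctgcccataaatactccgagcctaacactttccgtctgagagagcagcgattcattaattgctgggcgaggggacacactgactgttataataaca
Egr4: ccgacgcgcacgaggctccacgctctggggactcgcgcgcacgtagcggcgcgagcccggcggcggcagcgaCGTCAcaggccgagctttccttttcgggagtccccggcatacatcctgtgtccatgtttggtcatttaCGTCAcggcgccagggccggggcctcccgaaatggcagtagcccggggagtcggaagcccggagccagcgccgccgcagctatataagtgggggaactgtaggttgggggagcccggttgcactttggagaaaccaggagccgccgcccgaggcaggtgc
Nr4a1: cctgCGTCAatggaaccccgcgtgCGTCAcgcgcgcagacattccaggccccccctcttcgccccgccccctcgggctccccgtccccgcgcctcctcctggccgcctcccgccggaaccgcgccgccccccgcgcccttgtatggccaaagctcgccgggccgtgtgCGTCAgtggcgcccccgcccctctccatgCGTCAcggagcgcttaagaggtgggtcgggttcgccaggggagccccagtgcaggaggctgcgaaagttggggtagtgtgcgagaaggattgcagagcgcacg
Klf6: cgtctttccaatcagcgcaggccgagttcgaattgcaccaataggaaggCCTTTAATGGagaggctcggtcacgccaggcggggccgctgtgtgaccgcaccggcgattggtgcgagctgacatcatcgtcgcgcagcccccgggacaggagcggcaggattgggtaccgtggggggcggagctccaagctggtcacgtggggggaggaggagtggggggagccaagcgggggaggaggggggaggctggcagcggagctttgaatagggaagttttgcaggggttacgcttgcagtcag

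Egr1 held CArG boxes starting 105 and 83 bases before its start site, and Egr2 held a single one, also 83 bases before its start site and with the same letters, CCATATATGG. Both genes also held CGTCA 66 bases before the start. The windows were otherwise not alike, with 94 of 300 bases identical at the same position. The Klf6 window held a CArG box 201 bases before the start site. A CArG box was present in 3 of the 7 member windows and in 1.64% of all 33469 windows of that length, and TGACG was present in 5 of 7 against 21.2% of all. Nr4a1 held TGACG 4 times and Egr4 2 times. The full palindrome TGACGTCA, which contains TGACG, was in no member window and in 1.83% of all.

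Of the other motifs searched on both strands, the Egr site GCGTGGGCG was in no member window and in 0.544% of all. Its variant GCGGGGGCG was in that of Nr4a1 and in 2.73% of all. The Nr4a site AAAGGTCA was in none and in 1.43% of all, the Myc site CACGTG was in that of Klf6 and in 6.42% of all, and TATAAA was in that of Klf4 and in 14.2% of all. A match is a description of the letters only.

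Values below are log2 of the signal divided by the 75th percentile of the array, so that 0 is the brightness below which 75% of the probes lie, and they are compared between groups for 1 probe and never between genes. A probe was well above background where the scanner software rated it so. This held for 44.9% to 61.7% of the probes, with the lowest share in NP depleted rat 7. There were 4 slides and 3 scan days: the 6 whole arrays were all scanned on the third day, with D21 depleted rat 4 and NP depleted rat 7, and the other 4 depleted arrays on the earlier days. Mφ markers were lower in the depleted groups, with 12 of 15 tested called lower in D21 rats and 11 of 13 in NP rats, although the transcript of the ED1 antigen, Cd68, changed by 0.15 (limma adjusted p = 0.882) and -0.54 (limma adjusted p = 0.53). Well above background on all 3 arrays were 15 Mφ markers in D21 whole and 6 in D21 depleted cervix, and 13 and 5 in NP rats. These marker counts therefore follow in part from the filter on background. Of all genes tested, 11.9% (D21) and 17.0% (NP) were called lower.

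**Figure D1:**
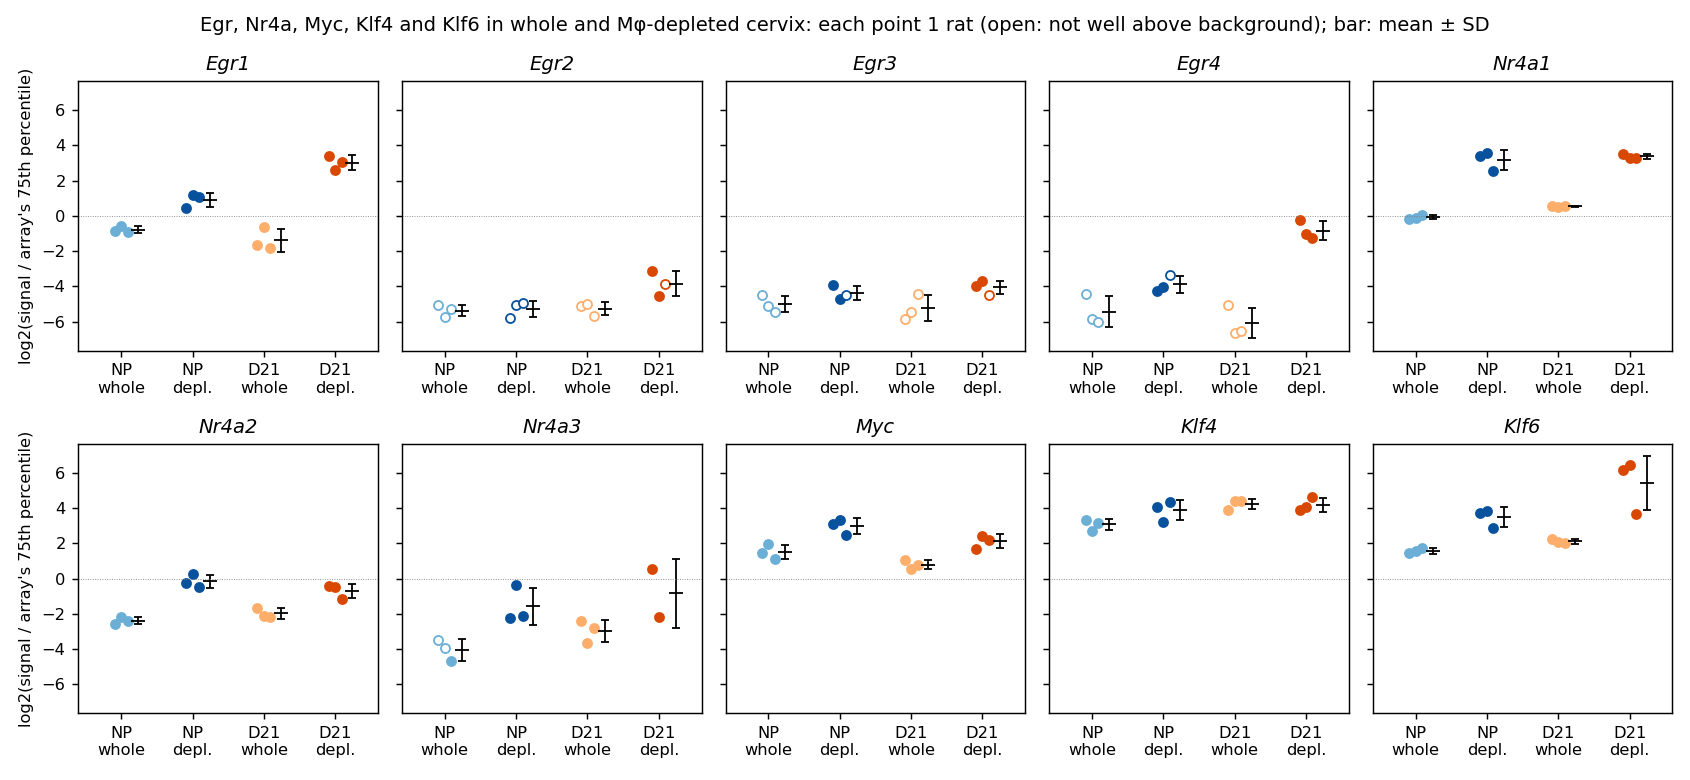
Log2 signal over the array's 75th percentile (y axis) of the 10 members in the 4 groups (x axis), each point 1 rat and open where the probe was not well above background, with the mean and SD beside them. Egr1, Nr4a1, Nr4a2, Myc and Klf6 lay higher in each depleted group than in the matching whole group, Egr2 and Egr3 lay near background, and Egr1 and Egr4 reached their highest values in D21 depleted cervix.

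In D21 rats, depleted against whole cervix, 6 of the 10 members were called higher at a limma adjusted p below 0.05 (Egr1, Egr4, Nr4a1, Nr4a2, Myc and Klf6), Nr4a3 and Klf4 were tested and not called, and Egr2 and Egr3 were too dim to test. None was called lower, at that threshold or at an unadjusted p below 0.05. Over all 14256 genes tested, 10.5% were called higher and 11.9% lower. Egr4 passed the filter on background through the depleted group alone, so that its call follows in part from the filter. By the threshold of the study's methods, p below 0.01 with at least 2-fold, the same 6 members were higher, against 7.72% of all genes. The lowest depleted rat lay above the highest whole rat for 8 of the 10 members, the exceptions being Egr3 and Klf4. This count includes Egr2, which was not tested, while the share over all genes, 23.2%, is of the genes tested alone.

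In NP rats 6 members were called higher as well (Egr1, Nr4a1, Nr4a2, Nr4a3, Myc and Klf6), Klf4 was not, and Egr2, Egr3 and Egr4 were too dim to test. Of all 13411 genes tested there, 15.8% were called higher and 17.0% lower, and 10.8% were higher by the threshold of the methods, which the same 6 members met. The groups did not overlap, with the depleted rats higher, for 7 of the 10 members, which include the untested Egr4, and for 24.0% of the genes tested. The median change of the members tested was 2.48 over 8 members in D21 rats and 1.90 over 7 in NP rats, beside medians over all genes tested of 0.06 and 0.04.

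**Figure D2:**
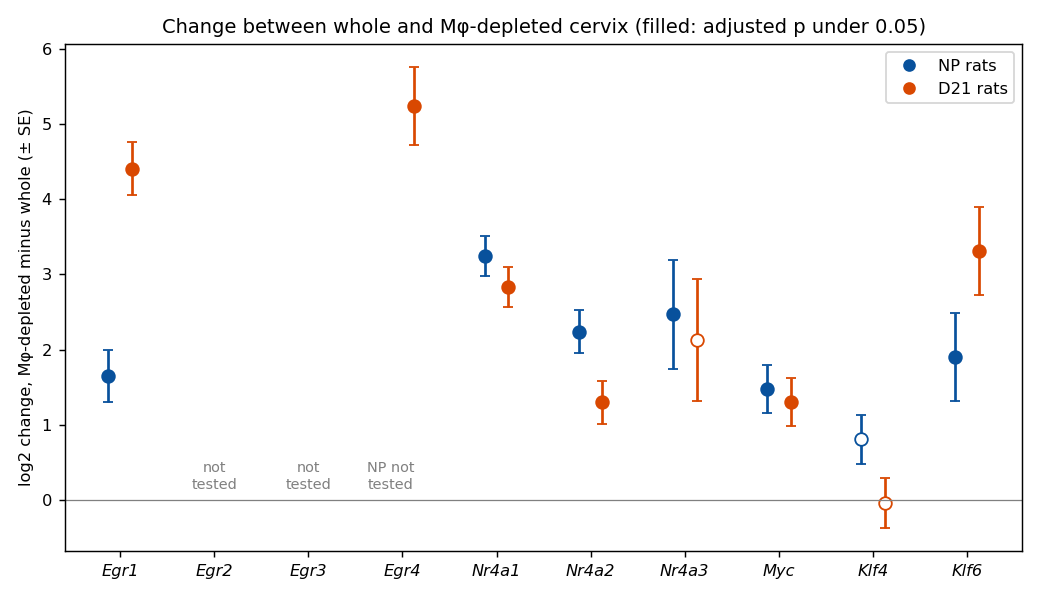
Log2 change between Mφ-depleted and whole cervix (y axis, with its SE) for each member (x axis) in NP and D21 rats, filled where the adjusted p was below 0.05. The change of Egr1 was 4.41 in D21 rats and 1.65 in NP rats, Nr4a1 had 2.83 and 3.25, and Klf4 lay near or below 0.80 in both; the change of Egr4 rests on whole arrays that were not above background.

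Egr1, the founding member of its family and a zinc-finger activator, was read by the probe at chr18:27347173-27347232 of the rn4 build, which was spotted 10 times on each array. It stood at 3.42, 2.62 and 3.03 in D21 depleted rats 1, 2 and 4, and at -1.66, -0.65 and -1.84 in D21 whole rats 5, 6 and 7. The groups lay apart by more than any spread within them, a log2 change of 4.41 (SE 0.35; limma adjusted p = 2.81e-05), or 21.2-fold. Among NP rats Egr1 stood at 0.42, 1.16 and 1.05 after depletion and at -0.84, -0.56 and -0.93 in whole cervix of rats 8, 9 and 10. That change was 1.65 (SE 0.35; limma adjusted p = 0.00395), or 3.15-fold, again with no overlap. The SD over the 10 spots of an array had a median of 0.16 on the log2 scale, below the spread between rats of the depleted groups (0.40 in both).

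On the third scan day alone, D21 depleted rat 4 stood 4.41 above the 3 D21 whole rats for Egr1, and on slide 1 NP depleted rat 7 stood 1.75 above NP whole rats 8 and 9. No slide held both D21 depleted and D21 whole arrays. With slide as a block Egr1 changed by 4.14 in D21 rats, with an adjusted p of 0.0619 by limma, so that the call was lost. D21 values with slide as a block, here and below, are indirect. They link the slides through NP arrays, and NP whole rat 10 was the single NP array on slide 2, which held the D21 whole arrays. The NP value of Egr1 with slide as a block was 1.79 (limma adjusted p = 0.0322).

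Egr4, an Egr factor best known in neurons and in the testis, did not rise well above background in the whole cervix of any rat. In D21 depleted rats 1, 2 and 4 it was well above background on each array, at -0.22, -1.04 and -1.26, against -5.07, -6.65 and -6.51 measured in D21 whole rats. The fit on these measured values gave a change of 5.24 (SE 0.52; limma adjusted p = 0.000136). As a bound, which was not itself tested, Egr4 was at least 10.7-fold higher after depletion. That bound sets the mean of the depleted rats against the dimmest signal rated well above background on each whole array, or the probe's own signal where that was higher. In NP depleted rats 5, 6 and 7 it stood at -4.27, -4.02 and -3.33, with rats 5 and 6 well above background. The same calculation gave 1.11-fold against NP whole cervix, with no test. That value averages in rat 7, which was not well above background, so it is not a firm lower bound. With normexp background correction the D21 change fell to 1.76 (limma adjusted p = 0.105), and with slide as a block it was 4.24 (limma adjusted p = 0.159).

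Egr2, known from myelin and from T cells, was well above background in D21 depleted rats 1 and 2, at -3.12 and -4.54, and on no other array. D21 depleted rat 4 stood at -3.88, above all 3 D21 whole rats, which lay between -5.66 and -5.00. The calculation used for Egr4 gave 1.33-fold over the D21 whole group. That value averages in rat 4, which was not well above background, so it is not a firm lower bound. Egr3, known from muscle spindles and lymphocytes, was well above background in D21 depleted rats 1 and 2 (-4.00 and -3.72) and in NP depleted rats 5 and 6 (-3.94 and -4.69). Its D21 groups overlapped, with D21 whole rat 7 at -4.42. Neither gene was well above background on all 3 arrays of a group, so neither was tested. The second Egr3 probe was above background on no array.

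Of the Nr4a receptors, Nr4a1 and Nr4a2 were called higher after depletion in both states and Nr4a3 in NP rats. Nr4a1 (Nur77), the best studied of them in dying T cells and in monocytes, stood at 3.53, 3.31 and 3.29 in D21 depleted rats and at 0.56, 0.50 and 0.57 in D21 whole rats. The SD within these groups was 0.14 and 0.04, and the change was 2.83 (SE 0.27; limma adjusted p = 0.000105), or 7.14-fold. NP rats had Nr4a1 at 3.39, 3.57 and 2.52 after depletion and at -0.18, -0.11 and 0.03 in whole cervix, a change of 3.25 (SE 0.27; limma adjusted p = 8.25e-06), or 9.48-fold. Within slide 1 the NP difference was 2.66, and on the third scan day the D21 difference was 2.75. With slide as a block the change was 2.66 in D21 rats (limma adjusted p = 0.0714, the call lost) and 2.93 in NP rats (limma adjusted p = 0.000702).

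Nr4a2 (Nurr1), known for its part in dopamine neurons, stood at -0.45, -0.46 and -1.15 in D21 depleted rats and at -1.65, -2.12 and -2.18 in D21 whole rats. The change was 1.30 (SE 0.29; limma adjusted p = 0.0113). In NP rats it stood at -0.25, 0.26 and -0.47 after depletion and at -2.57, -2.17 and -2.44 in whole cervix, a change of 2.24 (SE 0.28; limma adjusted p = 0.000152). The groups did not overlap in either comparison. The second probe gave 0.92 in D21 rats (limma adjusted p = 0.0346) and 2.08 in NP rats (limma adjusted p = 0.000183). The D21 call was lost without D21 depleted rat 1, D21 whole rat 6 or D21 whole rat 7, where the highest adjusted p was 0.0558, and on the third scan day alone the D21 change was 0.84 (limma adjusted p = 0.155).

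Nr4a3 (Nor1), the third receptor, had its single spot marked as an outlier in D21 depleted rat 1, and that value was left out of the fit. The other D21 depleted rats, 2 and 4, stood at 0.56 and -2.21, against -2.41, -3.63 and -2.81 in D21 whole rats. The change of 2.12 (SE 0.81) was not called (limma adjusted p = 0.0821) and the depleted rats lay far from each other. Had the marked spot been kept, rat 1 would have stood at 6.93. In NP rats the values were -2.26, -0.35 and -2.10 after depletion and -3.46, -3.97 and -4.70 in whole cervix, where NP whole rat 10 was the single rat well above background, so that Nr4a3 passed the filter there through the depleted group alone. That change was 2.47 (SE 0.72; limma adjusted p = 0.0249). It was lost with slide as a block (1.05; limma adjusted p = 0.374) and without NP depleted rat 6, NP whole rat 9 or NP whole rat 10.

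The second Nr4a3 probe, 25853 bases away on the same chromosome, was at background in the whole cervix of each rat. It stood at -0.94, -1.15 and -3.00 in D21 depleted rats, with rats 1 and 2 well above background. The calculation used for Egr4 gave 5.91-fold over D21 whole cervix, and 2.71-fold in NP rats. Each value averages in a depleted rat that was not well above background (D21 rat 4 and NP rat 7), so neither is a firm lower bound. With the mean of both probes Nr4a3 was called in D21 rats at 3.15 (limma adjusted p = 0.00875). On both probes D21 depleted rat 4 was the lowest of its group.

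**Figure D3:**
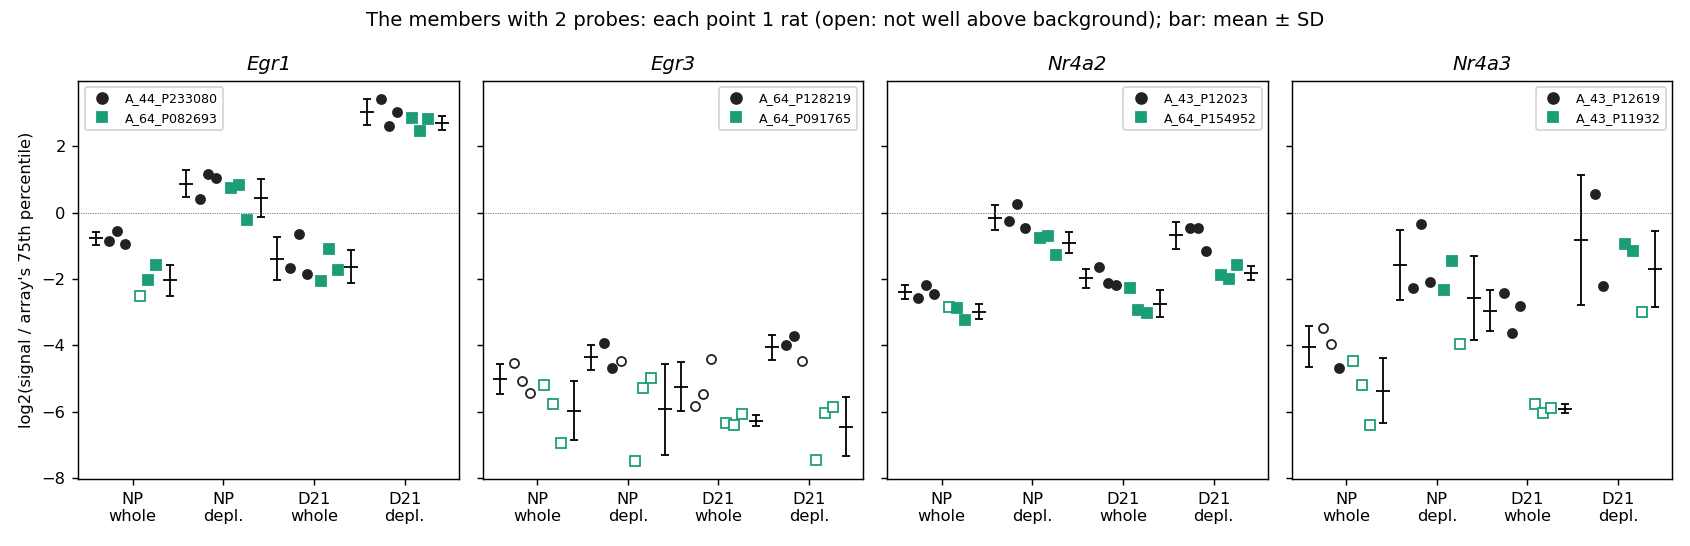
Log2 signal over the array's 75th percentile (y axis) for the 4 members with 2 probes in the 4 groups (x axis), each point 1 rat and open where not well above background, with the mean and SD (over 2 rats for the first Nr4a3 probe in D21 depleted cervix). The 2 Egr1 probes had D21 changes of 4.41 and 4.34 and NP changes of 1.65 and 2.49, and the second was not well above background in NP whole rat 8.

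Myc, the growth factor-induced activator, stood at 1.66, 2.44 and 2.20 in D21 depleted rats and at 1.07, 0.54 and 0.77 in D21 whole rats. The change was 1.31 (SE 0.32; limma adjusted p = 0.0174). The NP rats had 3.11, 3.34 and 2.49 after depletion and 1.45, 1.94 and 1.12 in whole cervix, a change of 1.48 (SE 0.32; limma adjusted p = 0.0044). Each depleted rat lay above each whole rat of its own state, and the NP rats of both kinds lay above the D21 rats of the same kind. The D21 call was lost without D21 depleted rat 2, D21 whole rat 6 or D21 whole rat 7, with a highest adjusted p of 0.0707, and with slide as a block (0.69; limma adjusted p = 0.705). In NP rats the slide block gave 0.94 (limma adjusted p = 0.0875).

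Klf6, induced by wounding and known as a growth suppressor, stood at 6.16 and 6.44 in D21 depleted rats 1 and 2 but at 3.67 in rat 4, and at 2.27, 2.08 and 1.99 in D21 whole rats. The change was 3.31 (SE 0.59; limma adjusted p = 0.00401), and 4.19 without rat 4. In NP rats it stood at 3.73, 3.85 and 2.85 after depletion and at 1.44, 1.53 and 1.76 in whole cervix, a change of 1.90 (SE 0.59; limma adjusted p = 0.0283). In each state the depleted rats scanned on the third day, D21 rat 4 and NP rat 7, were the lowest of their group, and against whole rats of that day they stood 1.56 and 1.27 higher. The NP call was lost without NP depleted rat 5 or 6 or any 1 of the NP whole rats, where the highest adjusted p was 0.087, and with slide as a block (0.84; limma adjusted p = 0.227).

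Klf4, a factor of epithelial barriers and of stem cells, was the member that did not follow the others. It stood at 3.87, 4.06 and 4.62 in D21 depleted rats and at 3.88, 4.38 and 4.41 in D21 whole rats, and the change was -0.04 (SE 0.33; limma adjusted p = 0.94). Among NP rats Klf4 stood at 4.04, 3.23 and 4.36 after depletion and at 3.32, 2.72 and 3.17 in whole cervix, a change of 0.80 (SE 0.33; limma adjusted p = 0.0834), with rat 6 of the depleted group inside the range of the whole group. With scan day as a block the NP change was 1.24 and was called (limma adjusted p = 0.0309). Klf4 had the lowest correlation with each of the other members tested, between -0.12 and 0.38 (Pearson's r over the 12 arrays, 11 with Nr4a3).

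D21 against NP whole cervix compares the state before birth with the nonpregnant state in cells that kept their Mφs. None of the 7 members tested was called by limma, beside 3.94% of all 14057 genes called higher and 1.93% lower. At an unadjusted p below 0.05 there were 3: Klf4 at 1.15 (SE 0.33; limma adjusted p = 0.0662) and Nr4a1 at 0.63 (SE 0.27; limma adjusted p = 0.192) were higher in D21 rats, and Myc at -0.71 (SE 0.32; limma adjusted p = 0.211) was lower. Klf4 met the threshold of the methods with limma and with the methods' t-test, which called no member after Benjamini-Hochberg adjustment. With the whole arrays fitted alone Klf4 (limma adjusted p = 0.0256) and Nr4a1 (limma adjusted p = 0.0332) were called. Egr1 differed by -0.61 (SE 0.35; limma adjusted p = 0.328), Klf6 by 0.54, Nr4a2 by 0.41 and Nr4a3 by 1.09, with adjusted p of 0.401 or more by limma for these 3. The second Egr1 probe had the opposite sign, 0.41 (SE 0.36; limma adjusted p = 0.53), with NP whole rat 8 not well above background. With the mean of both probes Egr1 differed by -0.10 (limma adjusted p = 0.878), so that its direction there was not settled.

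In the depleted cervix, D21 against NP rats, Egr1 and Egr4 were called higher of 8 members tested and none lower, beside 3.62% of all 13407 genes higher and 0.970% lower. Egr1 was 2.15 higher in D21 rats (SE 0.35; limma adjusted p = 0.00503), or 4.43-fold, with its lowest D21 rat at 2.62 and its highest NP rat at 1.16. The second Egr1 probe gave 2.26 (limma adjusted p = 0.00466). Egr4 was 3.03 higher (SE 0.52; limma adjusted p = 0.00697), with its highest NP value, -3.33, on the NP array where it was not well above background. It therefore passed the filter through the D21 group alone, and its call follows in part from the filter. On slide 3 D21 depleted rat 2 stood above NP depleted rats 5 and 6 by 1.83 for Egr1 and by 3.11 for Egr4, and on slide 1 D21 rat 4 stood above NP rat 7 by 1.98 and 2.07. With slide as a block the adjusted p was 0.0503 for Egr1 and 0.056 for Egr4 by limma.

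Klf6 was 1.95 higher in D21 depleted cervix (SE 0.59) and not called (limma adjusted p = 0.0915), but it was called without D21 depleted rat 4 (2.82; limma adjusted p = 0.00067) and with slide as a block (1.87; limma adjusted p = 0.0441). Myc was 0.88 lower on the log2 scale (-0.88, SE 0.32; unadjusted p = 0.017, limma adjusted p = 0.141), with its highest D21 rat just under its lowest NP rat. The depleted groups of the 2 states also differed in stromal markers. The summed signal of 10 fibroblast markers, as multiples of the 75th percentile, lay between 318 and 472 in D21 depleted rats and between 17.3 and 60.0 in NP depleted rats. Of the 10, 8 were called higher in D21 rats, where 3.62% of all genes tested were. Smooth muscle markers summed to between 44.7 and 160.0 in D21 and between 21.4 and 28.6 in NP depleted rats. Their part in the Egr1 and Egr4 difference was not tested, and in such cell suspensions fewer cells of a type and less RNA per cell cannot be told apart.

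An interaction term, the D21 change minus the NP change, tested whether depletion moved a member by different amounts in the 2 states. Egr1 (2.76, SE 0.49; limma adjusted p = 0.0178) and Egr4 (3.68, SE 0.74; limma adjusted p = 0.0297) were called, beside 1.96% of 14565 genes higher and 0.439% lower. The Egr4 value rests on whole arrays that were not above background. Egr4 passed the filter of the interaction through the D21 depleted group alone, so that its call follows in part from the filter. The second Egr1 probe gave 1.85 and was not called (limma adjusted p = 0.0881). Its NP change was 2.49, with NP whole rat 8 not well above background. The Egr1 call was lost without D21 whole rat 5 or 7, with values of 2.62 and 2.53 and adjusted p of 0.054 and 0.0644 by limma. The Egr4 call was lost in 7 of the 12 fits that left out a rat: NP depleted rat 5 or 6, D21 depleted rat 1 or 2, NP whole rat 8, and D21 whole rat 6 or 7. Its values lay between 3.19 and 4.19 over the 12 fits, with a highest adjusted p of 0.0978 by limma. No member was called lower. At an unadjusted p below 0.05 Nr4a2 had a smaller change in D21 rats (-0.94, SE 0.40; limma adjusted p = 0.239). Nr4a1 (-0.41, SE 0.38), Myc (-0.17, SE 0.45) and Klf6 (1.41, SE 0.84) were not called, with limma adjusted p of 0.584, 0.862 and 0.386.

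D21 depleted rat 4, the D21 depleted array that shared its scan day with the whole arrays, decided several values. Without it 9 members were tested and called higher in the D21 depletion comparison, Nr4a3 at 3.51 (limma adjusted p = 0.00805) and Egr2 and Egr3 among them. Egr2, Egr3 and Egr4 passed the filter there through the remaining depleted rats alone, so that this count follows in part from the filter. No share over all genes is given for that fit. Klf4 was not called. The interaction of Klf6 rose to 2.29 and was called (limma adjusted p = 0.00793).

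The 8 genes most like the mean of the 8 members that passed the filter, by Pearson's r over the 12 arrays among 1999 named genes that varied, were Jun (0.99), Ppp1r15a (0.99), Ier2 (0.97), Atf3 (0.97), Hap1 (0.96), Ptprf (0.96), Gadd45b (0.96) and Dusp5 (0.96). These r values are descriptions, and the 12 points are the same arrays for each gene and fall into 4 groups. Among themselves, Egr1 was most like Egr4 (r = 0.94), Nr4a1 most like Nr4a2 (r = 0.94), Nr4a3 most like Klf6 (r = 0.90), and Myc most like Nr4a2 (r = 0.82). Jun, the partner of Fos in AP-1, changed by 2.46 in D21 and 2.19 in NP rats, and Atf3, a stress-induced factor, by 5.54 and 5.27. Gadd45b and Ppp1r15a, both induced by cell stress, changed by 3.34 and 3.25 in D21 rats.

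Of all genes tested, 10.5% (D21) and 15.8% (NP) were called higher. Of the list of Fos, Jun and other immediate-early genes, 11 of 14 tested were called higher in D21 rats and 9 of 13 in NP rats, with none lower, also at an unadjusted p below 0.05, and with medians of 1.87 in both. In D21 rats these were Atf3, Csrnp1 (3.67), Ier2 (2.48), Jun, Fos (2.13), Jund (1.60), Btg2 (1.28), Ier5 (1.08) and Fosl2 (1.00), with Fosb and Fosl1, which were at background on the whole arrays of both states. Fosb and Fosl1 in D21 rats, and Fosb in NP rats, passed the filter through the depleted group alone, so that their calls follow in part from the filter. Fosb was at least 11.3-fold and Fosl1 at least 11.9-fold higher in D21 depleted cervix. Mafk, Ier3 and Maff were tested and not called, Zfp36 was too dim to test and no probe was named Junb. Fos, the partner of Jun, changed by 4.40 in NP rats (limma adjusted p = 1.15e-05) and by 2.13 in D21 rats (limma adjusted p = 0.00414), so that its change was larger in the NP rats and that of Egr1 in the D21 rats. The interaction of Fos was -2.26 (SE 0.54) and was not called (limma adjusted p = 0.0556). Between the states Fos was already 2.53 higher in D21 than in NP whole cervix (limma adjusted p = 0.0062). In depleted cervix it differed by 0.27 (limma adjusted p = 0.712), whereas Egr1 differed between the states in depleted cervix.

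Of the Nab corepressors, which bind Egr proteins, and the Dusp and Sprouty inhibitors of kinase signalling, 2 of 7 tested were called higher in each state, where 10.5% (D21) and 15.8% (NP) of all genes were, and none lower. They were Dusp1 (1.79 in D21 and 3.45 in NP rats) and Dusp5 (3.61 and 2.98), both phosphatases of mitogen-activated kinases. Nab1 (-1.57; limma adjusted p = 0.0745), Nab2 (0.30), Dusp6 (0.27), Spry1 (0.07) and Spry2 (-0.41) were not called in D21 rats, and Dusp2, Dusp4, Spry4, Spred1 and Spred2 were too dim to test.

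**Figure D4:**
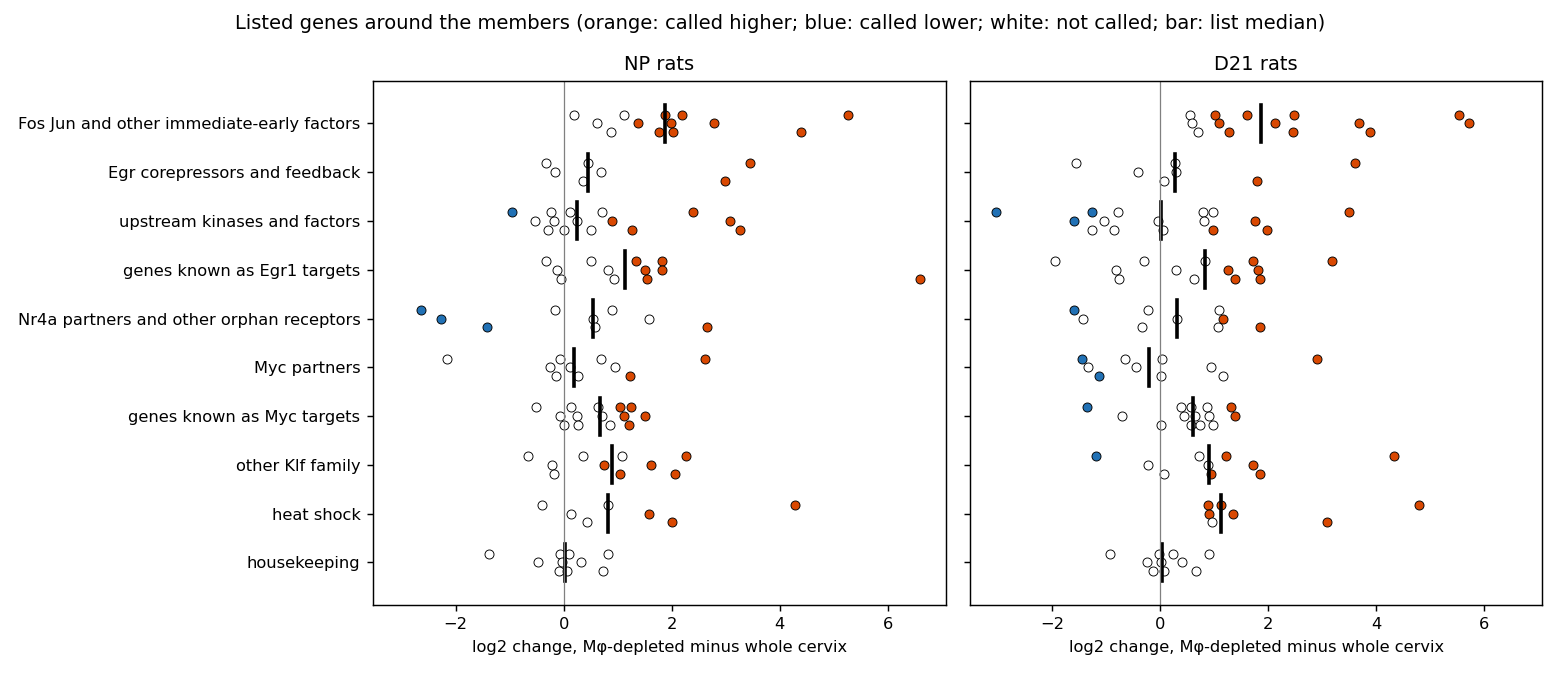
Log2 change between Mφ-depleted and whole cervix (x axis) for the genes tested of 10 lists (y axis), in NP rats (left) and D21 rats (right), each point 1 gene, coloured where called and with the list's median as a bar. The immediate-early list has a median of 1.87 in both states and no gene called lower, and none of the 10 housekeeping genes was called.

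Beside the list counts that follow, 10.5% of all genes tested were called higher and 11.9% lower in D21 rats. The shares in NP rats were 15.8% and 17.0%. Among ligands, kinases and factors upstream of the members, 4 of 16 tested were called higher and 3 lower in D21 rats, and 5 of 15 higher and 1 lower in NP rats. Hbegf, a ligand of the epidermal growth factor receptor, was the most increased in D21 rats at 3.50 (limma adjusted p = 0.000733), followed by Areg, another such ligand, at 1.97. Btc, also such a ligand, was lower at -3.05 and Elk1, a partner of serum response factor, at -1.60. Btc was not well above background on all 3 D21 depleted arrays and passed the filter through the whole group alone, so that its call follows in part from the filter. Srf itself (0.97; limma adjusted p = 0.0681) and Creb1 (-0.04) were not called. Of genes known as Egr1 targets 6 of 13 were called higher in D21 rats and 6 of 12 in NP rats, none lower (1 and 0 at an unadjusted p below 0.05). Gdf15, a stress-induced cytokine, was the highest in D21 rats at 3.18 (limma adjusted p = 0.0191).

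The counts below stand beside the same shares of all genes, 10.5% higher and 11.9% lower in D21 rats and 15.8% and 17.0% in NP rats. In lists this short, counts of 1 or 2 lie near those shares. Of 9 tested Nr4a partners and other orphan receptors, the retinoid X receptors Rxra (1.84; limma adjusted p = 0.0368) and Rxrb (1.16; limma adjusted p = 0.0281) were called higher in D21 rats. The clock repressor Nr1d2 was lower (-1.59; limma adjusted p = 0.0321). In NP rats 1 of 9 was higher and 3 were lower. Of the list of Myc partners and Myc family members 1 of 10 was higher in D21 rats, the family member Mycl under its older name Mycl1 (2.90; limma adjusted p = 0.000558). Lower were 2, Max (-1.14; limma adjusted p = 0.0304) and Mxi1 (-1.45; limma adjusted p = 0.0384). The 10 include Pias2, which entered by the synonym Miz1 and was not called in D21 rats. Of genes known as Myc targets 2 of 14 were called higher and 1 lower in D21 rats, and 5 of 14 higher in NP rats. The higher ones in D21 rats were Nolc1 (1.37) and Fbl (1.31), both of the nucleolus, and Eif4e, which binds the cap of messenger RNA, was lower at -1.36. Of other Klf genes 5 of 10 were higher in each state, led in D21 rats by Klf13, at least 11.96-fold higher, and by Klf7 (1.84). Klf13 was not well above background in D21 whole cervix and passed the filter there through the depleted group alone, so that its call follows in part from the filter. Klf2 was lower in D21 rats (-1.20; limma adjusted p = 0.0132).

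Other gene groups moved with the members. Beside the counts below, 10.5% of all genes tested were called higher and 11.9% lower in D21 rats, and 15.8% and 17.0% in NP rats. Heat shock genes were called higher for 6 of 7 in D21 rats and 3 of 7 in NP rats, with Hspa1b at 4.78 and 4.28 and Dnajb1 at 3.09 and 2.00, and no housekeeping gene of 10 was called in either state by limma (1 of 10 in D21 and 3 of 10 in NP rats had an unadjusted p below 0.05). The summed signal of 16 Mφ markers lay between 79.4 and 80.9 in D21 whole and between 11.5 and 16.0 in D21 depleted rats, and between 68.0 and 85.1 in NP whole and between 5.56 and 15.9 in NP depleted rats. Smooth muscle markers were called lower for 7 of 10 in D21 and 10 of 10 in NP rats, fibroblast markers for 4 of 10 and 9 of 10, and epithelial markers higher for 4 of 10 and 7 of 10. The markers that fell most in D21 rats were Adgre1, well above background on no D21 depleted array, and Csf1r (-6.74) of Mφs, Postn (-4.98) and Lum (-3.26) of fibroblasts and Lmod1 (-4.45) and Cnn1 (-3.96) of smooth muscle, and Tp63 (2.98) and Cldn4 (2.86) of epithelium rose while Cldn7 (-1.40) fell. Mast cell markers were called lower for 4 of 5 in D21 rats, led by Cpa3 and Mcpt1, neutrophil markers for 2 of 5 (Csf3r, and Ncf1 at -2.41), T and NK cell markers for 2 of 7 (Nkg7, -1.83, and Cd3g, -1.42) and endothelial markers for 3 of 10, led by Emcn (-1.70) and Tie1 (-1.54). Adgre1, Cpa3, Mcpt1 and Csf3r were well above background on no D21 depleted array. Csf1r, Lmod1 and Nkg7 were not well above background on all 3 D21 depleted arrays and also passed the filter through the whole group alone. The calls of all these genes follow in part from the filter, and their changes rest in part on signal not well above background. In NP rats the counts were 3 of 4, 3 of 5, 3 of 5 and 3 of 9, while 1 mast cell marker and 1 endothelial marker were called higher. On all 3 NP depleted arrays, 1 mast cell marker and no T and NK cell marker was well above background. The NP counts of these 2 cell types therefore follow in part from the filter. The part of these cell types in the changes of the members was not tested.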

How the data were processed

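Gene expression was measured on 1-colour (Cy3) Agilent arrays in 12 rats in 4 groups of 3, taken from the labels. The authors deposited the scanner intensity of each spot as Feature Extraction 9.5.3.1 wrote it, with background subtracted and no normalization between arrays, with 0 or 1 flags for each spot. The authors also deposited a ratio table, intensities scaled to each array's 75th percentile. Its column medians lay between 0.08 and 0.12. Scale and direction were settled by setting each column against its array (median ratio to the values used here 0.996 to 1.00), and the values are not centred.

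Control spots and spots marked as outliers were left out, spots of a probe averaged, and the log2 of the array's 75th percentile taken off. Probes were named by RefSeq accession (17320 of 30367) and otherwise by the array's name, and the brightest probe stood for a gene. A gene was tested if all 3 arrays of 1 or more of the compared groups rated it well above background. The fit was made by lmFit and eBayes of limma (version 3.58.1, R 4.3.3) with 4 group means over all 12 arrays, with Benjamini-Hochberg adjustment over all genes. The methods' t-test (Welch's test, unadjusted p below 0.01 with at least 2-fold), other normalizations, filters and blocks, and leaving out each rat were alternatives. Data were simulated for the D21 depletion comparison (14487 genes, with 50 changed at each size). Recovered were 16% of genes changed by 1, 62% of those changed by 2 and 90% of those changed by 3 on the log2 scale, with 11 false calls. Far fewer genes changed there than were called in the data (10.5% higher and 11.9% lower). These shares therefore do not give the power of the real comparison. Python 3.11.15 with numpy 2.4.6, pandas 2.3.3 and matplotlib 3.10.9 was used for summaries and plots.

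The members and lists were chosen with earlier results of these data known. The text names all members, the 8 genes most like them, all genes of the Fos and Jun and the Egr feedback lists, and otherwise the 2 genes of a list that changed most in each direction among those called in the D21 depletion comparison. A gene that this rule also selects is not reported here. Probe positions are those of the array files (rn4), and no exon or UTR annotation of that build was used here. The rats are separate animals, and their number limits the precision: with 3 against 3, an exact permutation test cannot go below p = 0.1.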

Additional observations from a re-analysis of the deposited data

Results flagged for a closer look

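The change of Egr1 with depletion was larger in D21 than in NP rats by 2.76 on the log2 scale (limma interaction, adjusted p = 0.0178), and the range of adjusted p over its alternatives was 0.0109 to 0.185. The change of Egr4 was larger by 3.68 (limma interaction, adjusted p = 0.0297; 0.0131 to 0.428 over its alternatives), a value that rests on whole arrays where its probe was not above background. Each D21 depleted rat lay above each NP depleted rat for both genes, but the share of all genes for which this held was not counted. The highest NP depleted value of Egr4, -3.33, was on an array where its probe was not well above background. Egr4 passed the filter through the D21 depleted group alone, so that its call follows in part from the filter. For the interaction of Egr1 the second probe gave 1.85 (limma adjusted p = 0.0881).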

How the results depend on the processing

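Single members kept their side of the threshold in 926 of 1037 values under the alternatives, 83 lost a call and 27 gained one. Another 1 fell in none of these classes, and none of the called values changed sign. The 1037 include fits without a rat of a group not compared, where the change stays the same and only its adjusted p can move. The 926 is therefore not a measure of how stable the members were. Values that were not called could change sign. The D21 depletion change of Klf4 lay between -0.26 and 0.12 over the fits that left out a rat. In D21 rats the 6 members called higher after depletion became 3 by the methods' t-test at its threshold, 0 by it after adjustment, 3 with normexp background correction and 0 with slide as a block, and the median change of the members tested, 2.48, became 1.70 with normexp, 2.12 where each array compared had to be well above background, 2.99 with the mean of all probes, 2.88 with array weights, 1.59 and 1.70 with slide and scan day as blocks and 3.07 with the authors' values. Over all genes tested in D21 rats, the number called higher went from 1500 to 99 with normexp and to 9 with slide as a block. In NP rats the 6 became 3 and 1 by the t-test and 3 with slide as a block, and the median of 1.90 became 1.50 with normexp, 1.29 with slide and 1.38 with scan day as blocks. Of all genes tested in NP rats, 2122 were called higher in the main fit and 1000 with slide as a block. In D21 against NP whole cervix, where none was called, 1 was higher by limma and 1 by the t-test at the threshold of the methods, 2 with the arrays compared alone, 1 with quantile normalization, 2 (with 1 lower) with array weights and 1 with scan day as a block. In the depleted cervix the 2 called became 0 by the t-test after adjustment, 1 with normexp, 1 with each array above background and, with slide as a block, 1 that was not among them (Klf6, with Egr1 and Egr4 both lost), and array weights added 1 lower. Between the depleted groups, 485 of all genes were called higher in the main fit, 221 with normexp and 285 with slide as a block. The 2 interactions became 0 with normexp, 0 with no filter, 1 with each array above background, 0 with slide and 1 with scan day as blocks. Over all genes, the interactions called higher went from 286 to 49 with normexp, 99 of 26612 with no filter and 50 with slide as a block.

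Alternatives chosen after seeing the data were keeping spots marked as outliers, which moved the D21 median to 3.07, and the third scan day alone, where the D21 median was 1.48, 2 members were higher in D21 whole cervix, and 0 were called in the depleted cervix and 0 as interactions. Leaving out each rat in turn gave 4 to 9 members higher in D21 rats (9 without D21 depleted rat 4), 4 to 6 in NP rats, 0 to 1 in D21 against NP whole cervix (1 without NP depleted rat 6 or D21 depleted rat 4), 2 to 4 in the depleted cervix (4 without D21 depleted rat 4) and 0 to 3 interactions (0 without D21 whole rat 7, 3 without D21 depleted rat 4). The D21 median then lay between 1.99 and 3.19, and where leaving out a rat left a group of 2, or 1 for Nr4a3, the spread was shared with the other groups. Taking the percentile over the probes detected on all arrays moved the median of all genes by -0.19 in the D21 depletion comparison and by -0.16 between depleted groups, and turned no call of a member there. Of the 8 genes most like the members 7 stayed with quantile normalization, 7 with that percentile and 3 with normexp. The cause of these changes was not tested. No paired analysis was possible because the groups that share rat numbers, D21 whole and NP depleted, are not compared with each other and are different animals. Signal near background limits Egr2, Egr3, Egr4 and Nr4a3.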
